A study of Mus musculus with 2 samples.

Results

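The E2F family of transcription factors (*E2f1* to *E2f8*), *Foxm1* and *Mybl2* are the genes described here, 10 of the 53342 rows that each liver file holds. They were chosen by symbol, and each symbol had 1 row in both files. Liver mRNA was sequenced in 1 library per genotype, control and iFIRKO. The iFIRKO mice carried Adipoq-CreERT2, a tamoxifen-inducible Cre recombinase driven by the adiponectin promoter and therefore active in adipocytes, together with Insr flox/flox, so that the insulin receptor gene was deleted in adipocytes and not in hepatocytes. The control is labelled WT, whereas the study's methods describe control mice as IR flox/flox without the Cre. Males aged 7 weeks of both genotypes received 100 mg/kg tamoxifen by intraperitoneal injection on 5 consecutive days, and liver was taken 3 days after the last dose. Neither the labels nor the methods say whether a library came from 1 mouse or from a pool.

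E2F proteins bind DNA, mostly as dimers with a DP partner, and switch genes of the G1/S transition and DNA replication on or off. *E2f1*, *E2f2* and *E2f3* are known as activators that the retinoblastoma protein holds in check. *E2f4*, *E2f5* and *E2f6* act mainly as repressors, and the atypical members *E2f7* and *E2f8* repress without a DP partner and are known in the liver for their part in hepatocyte polyploidization. *Foxm1* encodes a forkhead factor, and *Mybl2* encodes B-MYB, which works with the MuvB complex. Both act on the genes of G2 and mitosis, many of which carry a promoter element called the CHR (cell cycle genes homology region), and *Foxm1* is known to be needed for hepatocyte mitosis.

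The promoter sequences of the members bear on this wiring, since E2F genes are themselves known E2F targets. RefSeq start sites on GRCm38.p6 gave 9 windows of 300 bases, from 250 bases before to 49 bases after the start site, for 7 of the 10 genes. *E2f4*, *E2f5* and *Foxm1* had no entry in the table used. The windows were searched on both strands for the E2F words TTCCCGC (first word) and TTGGCGC (second word), for the CHR word TTTGAA, for the CCAAT box and for the GC-rich word GGCGG. The second E2F word overlaps a CCAAT box on the opposite strand where it follows an A, as it does in *E2f8*, and the first E2F word can overlap GGCGG on the opposite strand, as it does in *E2f3*. In each sequence printed here the capitals mark the E2F and CHR words, on either strand.

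The first window of *E2f2*, the member with the largest difference between the libraries, lies at chr4:136172024-136172323 on the forward strand, and its start site is 120 bases upstream of the gene's start in GENCODE M21. That of *E2f8*, the member with the lowest fold change, lies at chr7:48881547-48881846 on the reverse strand. Both are shown whole, because these genes had the highest and the lowest fold change of the family.
E2f2: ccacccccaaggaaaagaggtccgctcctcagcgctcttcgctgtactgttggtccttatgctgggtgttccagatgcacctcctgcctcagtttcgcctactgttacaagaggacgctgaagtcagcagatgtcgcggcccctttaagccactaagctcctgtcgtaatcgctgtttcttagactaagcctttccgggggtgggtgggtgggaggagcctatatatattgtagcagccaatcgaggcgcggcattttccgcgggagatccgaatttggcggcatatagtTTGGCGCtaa
E2f8: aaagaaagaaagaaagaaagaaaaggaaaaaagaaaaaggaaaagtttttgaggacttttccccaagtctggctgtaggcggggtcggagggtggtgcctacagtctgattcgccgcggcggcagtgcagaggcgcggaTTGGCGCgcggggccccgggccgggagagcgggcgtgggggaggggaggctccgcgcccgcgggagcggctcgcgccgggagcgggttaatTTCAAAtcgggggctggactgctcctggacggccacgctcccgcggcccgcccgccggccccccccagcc

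Stretches of 40 bases show the remaining matches closest together, from *E2f3* (chr13:29986055-29986094, reverse strand, with the CHR and an E2F word side by side) and *E2f7* (chr10:110745208-110745247, forward strand, with the E2F word on both strands). The CHR of *Cdc20* (chr4:118437330-118437369, reverse strand), *Plk1* (chr7:122159445-122159484, forward strand) and *Ccnf* (chr17:24251392-24251431, reverse strand) is shown beside them, because these mitotic genes are followed further on as G2/M targets.
E2f3: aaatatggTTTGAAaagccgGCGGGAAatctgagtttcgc
E2f7: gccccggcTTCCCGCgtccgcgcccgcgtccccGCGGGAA
Cdc20: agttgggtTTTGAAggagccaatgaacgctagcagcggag
Plk1: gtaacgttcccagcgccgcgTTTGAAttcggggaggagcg
Ccnf: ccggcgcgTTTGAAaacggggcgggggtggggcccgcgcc

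**Figure D1:**
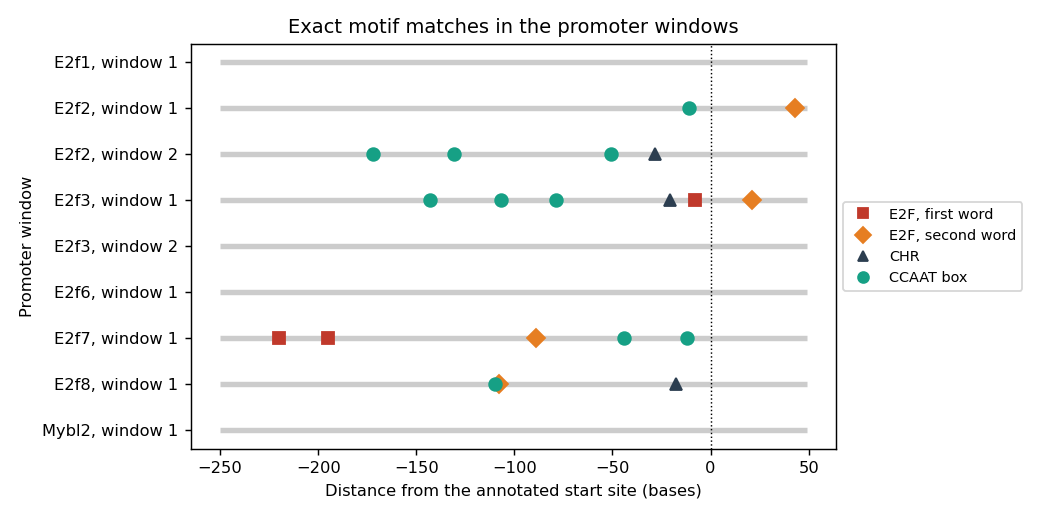
Positions of exact matches to the E2F words (first word TTCCCGC, second word TTGGCGC), the CHR word and CCAAT in the 9 promoter windows of 7 members, as distance from the annotated start site in bases. Matches to an E2F word lie in windows of E2f2, E2f3, E2f7 and E2f8, and the windows of E2f1, E2f6 and Mybl2 hold none of the 4 words.

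Of the 9 windows, 4 held an E2F word, 1 each of *E2f2*, *E2f3*, *E2f7* and *E2f8*, while 6.81% of all 32851 windows in the table held one. In *E2f3* the reversed TTCCCGC began 11 bases before the start site and TTGGCGC began 18 bases after it, and in *E2f8* TTGGCGC began 111 bases before it. *E2f7* held 3 matches. The CHR word stood in 3 windows, of *E2f2* (its second start site, 8388 bases downstream of the gene's start), *E2f3* and *E2f8*, against 17.9% of all windows. CCAAT was in 5 of the 9 (37.4% of all) and GGCGG in all 9 (48.8% of all). The window of *E2f1* belongs to a start site 466 bases downstream of the gene's annotated start, so the promoter at that upstream start was not searched. An exact match is a description of these letters and does not show binding.

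Each deposited value was a normalized read count on a log2 scale, and it is given here on the linear scale as normalized reads. The libraries held an estimated 42278712 (control) and 41311107 (iFIRKO) reads on genes, and 62.2% and 62.1% of their rows were listed at 0. A gene was tested where either library held 41.8 normalized reads or more, which is a CPM (count per 1000000 reads) of 1, and 13400 genes were. The fold change divides iFIRKO by control after a pseudocount of 4.18 normalized reads is added to both, and a gene was called when it passed the 1.5-fold limit of the study. With 1 library per genotype there is no replicate check and no p-value. The 95% intervals are exact, rest on estimated read pairs and cover counting error alone, so they compare libraries and not genotypes. *Alb* and the other 7 hepatocyte markers were abundant in both libraries (summed 5389320 and 5014990 normalized reads). *Insr* had 4246 and 3692 normalized reads, which does not check the genotype because the deletion is in adipocytes.

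Of the 10 genes, *E2f2* alone was called. It was upregulated 2.11-fold in the iFIRKO library, and none was called lower. The background shares were 4.46% of all tested genes called higher and 7.28% called lower. *Foxm1*, at 1.41-fold, *E2f8*, at 1.47-fold lower, and *E2f6*, at 1.27-fold lower, lay short of the limit with intervals that did not include 0. The share of all tested genes with such an interval was not computed, so no background stands beside these intervals. The other 6 members were within 1.30-fold of the control value, with intervals that included 0. All 10 passed the expression minimum, *Mybl2* only through the control library.

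**Figure D2:**
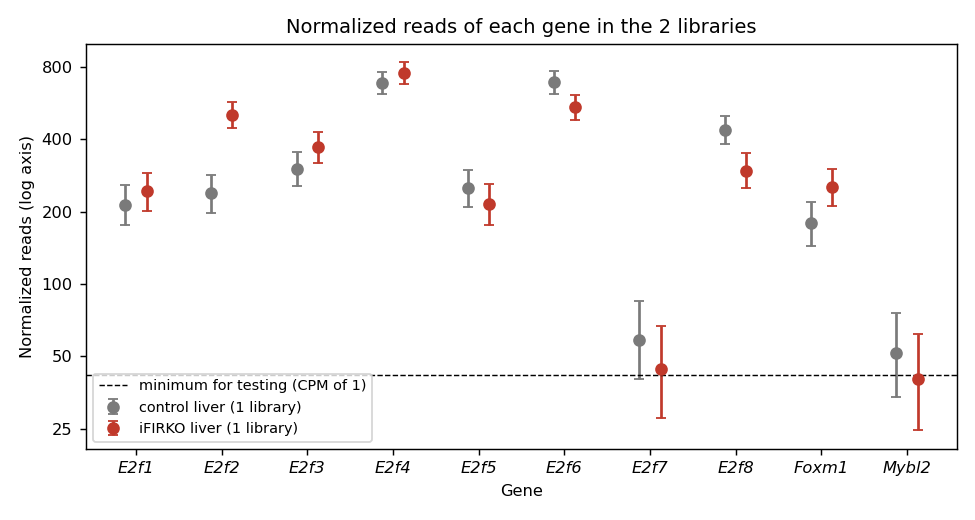
Normalized reads (log axis) of the 10 genes in the control library (grey) and the iFIRKO library (red), with exact 95% Poisson intervals of the estimated read pairs and the expression minimum of 41.8 normalized reads as a dashed line. The intervals of E2f2 run from 198 to 285 in control and from 447 to 574 in iFIRKO, and E2f7 and Mybl2 lie near the minimum.

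Among the activators, *E2f2* (chromosome 4 of GRCm38, 136172394 to 136196057, forward strand) had a level of 238.6 normalized reads in control liver against 507.7 in iFIRKO liver. The log2 fold change was 1.08 (interval 0.77 to 1.42), from 120 and 252 estimated read pairs. Only 176 of the 13400 tested genes (1.31%) had a larger log2 fold change. In this bulk tissue more cells of a type and more RNA per cell cannot be told apart.

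*E2f1* (chromosome 2, 154559407 to 154569892, reverse strand), the founding member of the family, stood at 214.2 normalized reads in control against 244.0 in iFIRKO. Its log2 fold change of 0.18 had an interval from -0.20 to 0.57, so no difference was detectable at this depth. *E2f3* (chromosome 13, 29906575 to 29986063, reverse strand) had 301.6 and 373.0 normalized reads (log2 fold change 0.30, interval -0.02 to 0.62). All 3 activators were above their control value, but only the interval of *E2f2* lay above 0. The 3 genes together went from 754.5 to 1125 normalized reads, a log2 ratio of 0.57 (interval 0.38 to 0.76), most of it from *E2f2*.

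*E2f2* is also known for a role in the late maturation of red cell precursors, and red cell transcripts also differed between the libraries. Of 9 listed red cell genes, 6 were tested and all 6 were called higher, of which *Slc4a1* (27.8 and 64.4 normalized reads) passed the minimum only through the iFIRKO library. The 9 summed to 13481 normalized reads in control against 27026 in iFIRKO. The 4 globin genes among them are near-identical copies in pairs, so their separate values are uncertain. The 5 precursor genes had a sum of 169.6 normalized reads in control against 91.7 in iFIRKO (log2 ratio -0.86, interval -1.42 to -0.33). *Klf1* and *Epor* were called lower, but *Epor* passed the minimum only through the control library and its interval (-1.55 to 0.24) included 0. The defining precursor genes *Gata1*, *Hemgn* and *Rhag* were at 3 read pairs or fewer in both libraries. The part of these cells in the *E2f2* value was not tested.

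The repressors *E2f4*, *E2f5* and *E2f6* did not pass the limit in either direction. *E2f4* (chromosome 8, 105297663 to 105305370, forward strand), the main E2F partner of the pocket proteins in resting cells, had 687.9 normalized reads in control against 756.2 in iFIRKO (log2 fold change 0.14, interval -0.08 to 0.35). *E2f5* (chromosome 3, 14578641 to 14606309, forward strand), which also binds pocket proteins, had 251.2 and 214.9 (log2 fold change -0.22, interval -0.60 to 0.17). For neither gene was a difference detectable at this depth. *E2f6* (chromosome 12, 16810963 to 16839742, forward strand), which represses without a pocket protein and is linked to Polycomb complexes, had 692.1 and 546.0 normalized reads. Its log2 fold change of -0.34 had an interval from -0.58 to -0.11, below 0 but within the 1.5-fold limit. The 3 repressors together had 1631 and 1517 normalized reads, a log2 ratio of -0.10 with an interval that included 0 (-0.25 to 0.04).

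Of the atypical members, *E2f8* (chromosome 7, 48866429 to 48881596, reverse strand) had 439.4 normalized reads in control against 297.0 in iFIRKO. The log2 fold change was -0.56 (interval -0.87 to -0.25), and 1057 of the 13400 tested genes (7.89%) had a smaller one. *Gm2788*, on the opposite strand, shares 610 exon bases with *E2f8*, 11.2% of its merged exons, and was itself called lower, with 1672 and 1010 normalized reads. The libraries were stranded, but no source used here says that strand was used in counting. Reads in the shared stretch may have been given to either gene, and the part of *Gm2788* in the *E2f8* value was not tested.

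*E2f7* (chromosome 10, 110745439 to 110787384, forward strand) had 58.6 and 44.3 normalized reads, from 30 and 22 read pairs. Its log2 fold change of -0.37 had an interval from -1.29 to 0.41, too wide to show a difference of this size. The pair together went from 498.1 to 341.3 normalized reads, a log2 ratio of -0.54 (interval -0.83 to -0.26), nearly all of it from *E2f8*.

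*Foxm1* (chromosome 6, 128362967 to 128376146, forward strand) had 179.1 normalized reads in control against 254.6 in iFIRKO, from 90 and 126 read pairs. The log2 fold change was 0.50 (interval 0.10 to 0.91), and 804 tested genes had a larger one. *Mybl2* (chromosome 2, 163054687 to 163084688, forward strand) had 51.5 and 40.3 normalized reads, from 26 and 20 read pairs. Its log2 fold change of -0.33 had an interval from -1.28 to 0.54, so its direction could not be told at this depth. Of these 2 factors that act on mitotic genes, only *Foxm1* had an interval without 0.

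**Figure D3:**
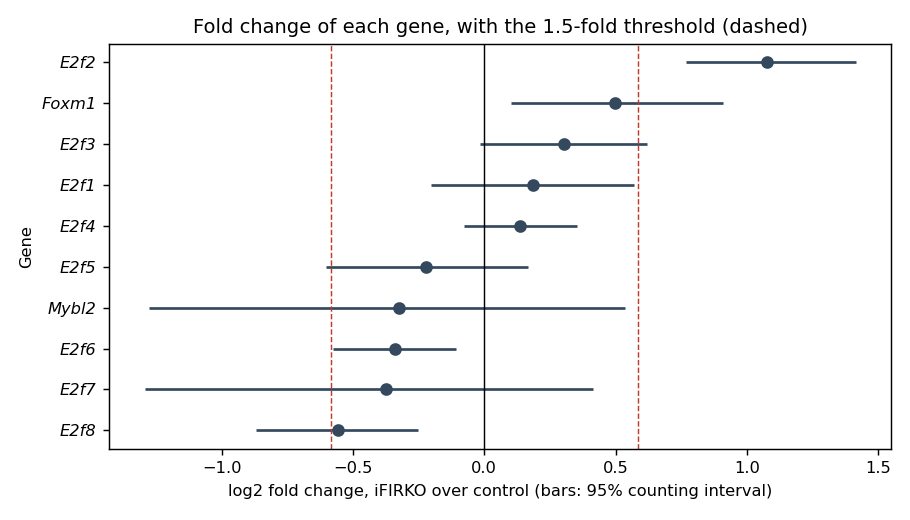
Log2 fold change (iFIRKO over control) of the 10 genes in order of size, with exact 95% counting intervals as bars and the 1.5-fold limit as dashed lines. E2f2 (1.08) lies past the limit with its whole interval, while Foxm1 (0.50), E2f6 (-0.34) and E2f8 (-0.56) lie within the limit with intervals that do not include 0. The share of all tested genes with such intervals was not computed.

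The reads of the 8 E2F genes together hardly differed, whereas their make-up did. The sum was 2884 normalized reads in control against 2983 in iFIRKO, a log2 ratio of 0.05 (interval -0.06 to 0.15). The activators *E2f1* to *E2f3* held 26.2% (interval 23.9 to 28.5) of the family's read pairs in control and 37.7% (interval 35.2 to 40.2) in iFIRKO. *E2f2* alone went from 8.27% (6.90 to 9.81) to 17.0% (15.1 to 19.0). The share of *E2f4* to *E2f6* was 56.5% (53.9 to 59.1) and 50.9% (48.3 to 53.5), and that of *E2f7* and *E2f8* was 17.3% (15.4 to 19.3) and 11.5% (9.89 to 13.2). The intervals of all 3 classes were separate between the libraries, though a share must fall when another rises.

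**Figure D4:**
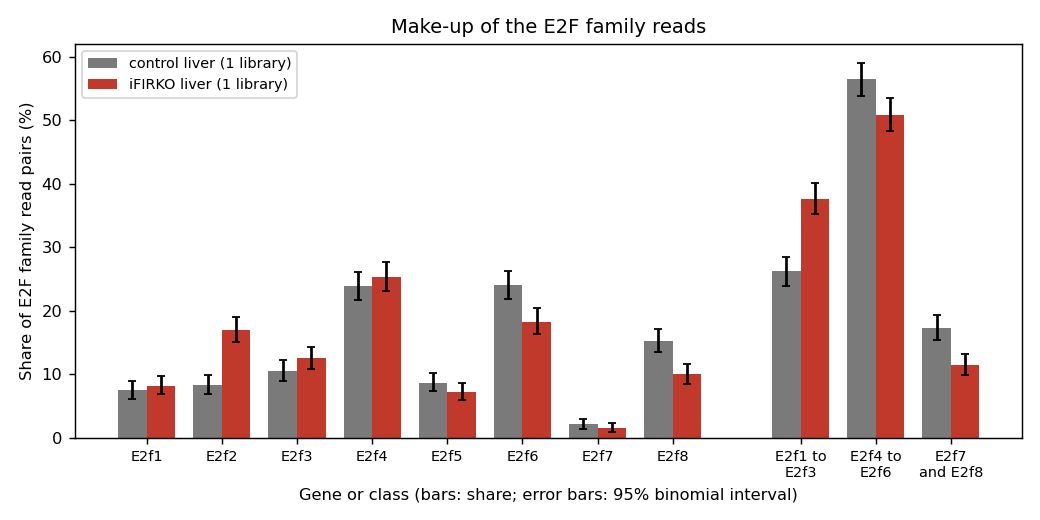
Share of the E2F family's estimated read pairs (%) held by each gene and by each class in the control (grey) and iFIRKO (red) libraries, with exact 95% binomial intervals. The activator class held 26.2% in control and 37.7% in iFIRKO, and the atypical class 17.3% and 11.5%.

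Per kilobase of merged exons, which allows levels of different genes to be compared, *E2f4* was the highest in both libraries, with 280.5 normalized reads per kb in control against 308.4 in iFIRKO. In control it was followed by *E2f5* (140.9), *E2f6* (122.2), *E2f8* (80.7), *E2f1* (67.9), *E2f3* (55.6), *E2f2* (48.9), *Foxm1* (31.1), *Mybl2* (11.1) and *E2f7* (6.51). The intervals of the neighbours *E2f5* and *E2f6*, of each gene and the next from *E2f8* to *E2f2*, and of *Mybl2* and *E2f7* overlapped, while that of *E2f8* lay wholly above those of *E2f3* and *E2f2*. In the iFIRKO library *E2f2* stood at 104.0 normalized reads per kb, behind *E2f4* and *E2f5* (120.6), and *E2f8* at 54.6. Every neighbour in the iFIRKO order from *E2f5* down to *Foxm1* (44.3) overlapped the next. The ratio of *E2f2* to *E2f1* per kb was 0.720 in control and 1.34 in iFIRKO, and that of *E2f2* to *E2f8* was 0.605 and 1.91.

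The genes these factors work with were described by lists, whose counts are read against the 4.46% of tested genes called higher and the 7.28% called lower, and whose medians are read against 0.01 for all tested genes. The DP partners and pocket proteins hold the E2F factors on DNA or keep them silent. All 5 (*Tfdp1*, *Tfdp2*, *Rb1*, *Rbl1* and *Rbl2*) were tested and 0 were called, with a median log2 fold change of -0.13. *Tfdp1*, the main DP partner, had 1012 and 992.4 normalized reads (log2 fold change -0.03). *Rbl2*, the p130 pocket protein of resting cells, had 1567 and 1336 (log2 fold change -0.23, interval -0.38 to -0.08), *Tfdp2* had a log2 fold change of -0.13, and *Rbl1*, or p107, one of -0.19. The 5 summed to 3913 normalized reads in control against 3543 in iFIRKO, a log2 ratio of -0.14 (interval -0.24 to -0.05). Each of the 5 was slightly below its control value.

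The next list held the MuvB core, which B-MYB and *Foxm1* join on mitotic promoters, and the MYB relatives *Myb* and *Mybl1*. Of 7 genes 6 were tested and 0 were called, with a median of 0.14. *Rbbp4*, a histone-binding subunit, had 2456 and 2471 normalized reads, *Lin52* had 309.8 and 358.6, *Lin54*, which contacts the CHR, had 355.9 and 330.1, and *Lin9* had 113.4 and 143.8. All 4 intervals included 0.

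Among 15 G1 cyclins, their kinases and the kinase inhibitors, which set how much pocket protein is active, 13 were tested, 2 were called higher and 2 lower, with a median of 0.06. *Cdkn1a*, which encodes the inhibitor p21, was upregulated from 2536 to 4508 normalized reads (log2 fold change 0.83, interval 0.73 to 0.93). *Ccne1*, or cyclin E1, itself an E2F target and named here after its value was seen, went from 55.6 to 100.6 (log2 fold change 0.81, interval 0.16 to 1.58). *Ccnd2*, or cyclin D2, fell by 0.68 on the log2 scale, from 393.4 to 243.6 normalized reads, and *Cdkn1c*, which encodes the inhibitor p57, fell by 0.81, from 213.0 to 119.7. *Ccnd1*, the most abundant cyclin of the list, had 3338 and 2262 normalized reads (log2 fold change -0.56), just short of the limit, and *Cdk4* had 1338 and 1187. The calls in this list thus went both ways for cyclins and for inhibitors.

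G1/S targets, the replication genes that E2F factors are best known for, showed only a small shift as a group. Of 36 genes 35 were tested, 3 were called higher (8.57%) and 3 lower (8.57%), and the median was -0.06. Among those tested, 13 lay above 0 and 22 below. The 36 summed to 17454 normalized reads in control against 16711 in iFIRKO, a log2 ratio of -0.06 (interval -0.11 to -0.02). *Uhrf1*, a maintenance factor of DNA methylation, fell to 0.499 of its control level, from 283.3 to 139.2 normalized reads. *Pola1*, the catalytic subunit of DNA polymerase alpha, fell by 0.95 on the log2 scale from 263.6 to 134.8, and *Tk1*, thymidine kinase, fell by 0.88 from 1920 to 1044. The higher genes, named after their values were seen, were *Rrm2*, the regulated subunit of ribonucleotide reductase (755.2 and 1264 normalized reads), *Gins2* (65.6 and 106.7) and *Gins3* (30.2 and 50.3), of which *Gins3* passed the minimum only through the iFIRKO library and had an interval that included 0. *Pcna*, the sliding clamp, had 1392 and 1268 normalized reads (log2 fold change -0.13), within the limit.

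G2/M targets of *Foxm1* and of B-MYB with MuvB were higher as a group. All 33 genes were tested, 24 were called higher (72.7%) and 0 lower, and the median log2 fold change was 0.98. Of the called genes 1, *Cdc25c* (29.4 and 72.4 normalized reads), passed the minimum only through the iFIRKO library. *Ccnb1*, the mitotic cyclin B1, rose from 129.2 to 555.3 normalized reads (log2 fold change 2.07, interval 1.71 to 2.52). *Cdc20*, the activator of the anaphase-promoting complex, rose from 231.2 to 916.0 (1.97, interval 1.69 to 2.30), and *Plk1*, a mitotic kinase known to phosphorylate FOXM1, rose from 121.6 to 443.7 (1.83, interval 1.45 to 2.30). The 3 members with the highest mean of both libraries, not corrected for length, were not called. *Ccnf*, or cyclin F, had 791.6 and 1176 normalized reads (log2 fold change 0.57, just short of the limit), *Top2a*, topoisomerase II alpha, had 748.5 and 836.4 (0.16), and *Cks2*, a CDK subunit, had 784.0 and 720.7 (-0.12). *Mki67*, which encodes the Ki-67 antigen and is in none of these lists, rose from 739.2 to 1221 normalized reads (log2 fold change 0.72). The G2/M list overlaps mitotic genes already known to differ in these libraries and is no independent evidence of a direction.

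**Figure D5:**
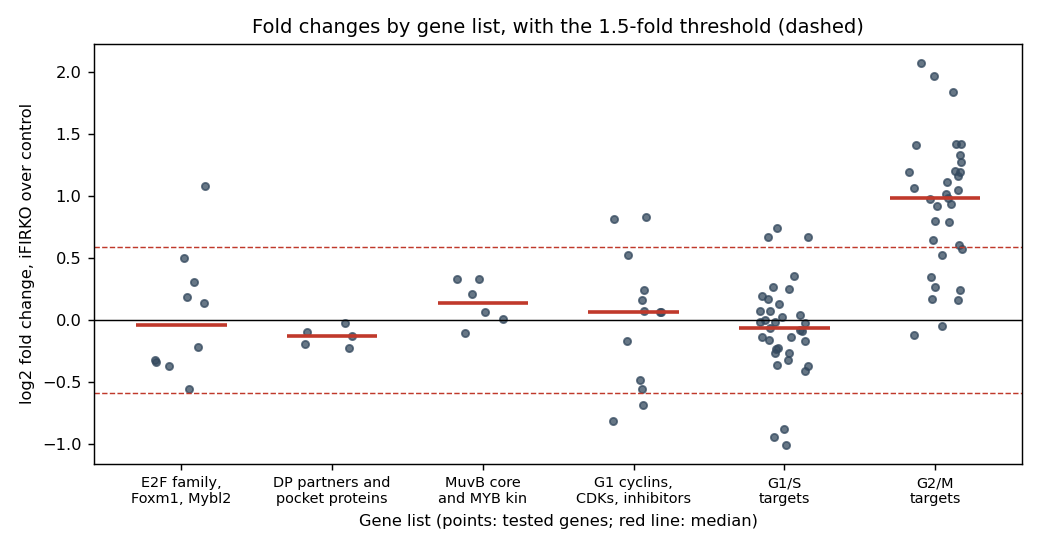
Log2 fold change (iFIRKO over control) of each tested gene in 6 lists, with the list median as a red line and the 1.5-fold limit as dashed lines. The G2/M targets have a median of 0.98 and 24 of 33 genes above the limit, while the medians of the other 5 lists lie between -0.13 and 0.14.

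*E2f2*, at 1.08, thus lay near the median of the G2/M targets, and *Foxm1*, at 0.50, below it. *Mybl2*, at -0.33, had a point value below every gene of that list, with the widest interval of the 3 (-1.28 to 0.54). That interval took in the point values of *Cks2* (-0.12) and *Top2a* (0.16), so this order is not firm. Of the G2/M list, 28 genes had promoter windows, 30 in all, of which 19 (63.3%) held the CHR word, 26 (86.7%) held CCAAT and 4 (13.3%) an E2F word. Of 37 windows of 30 G1/S targets, 5 (13.5%) held the CHR word, 25 (67.6%) CCAAT and 20 (54.1%) an E2F word. Among all windows the shares were 17.9%, 37.4% and 6.81%. Both lists were chosen as known targets of these factors, so the contrast between them is no independent evidence. The windows of *Cdc20*, *Plk1*, *Top2a* and *Ccnf* each held the CHR word, whereas that of *Ccnb1*, whose start site is 84 bases downstream of the gene's annotated start, held TTGGCGC and no CHR word, and that of *Cks2* held neither.

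Other proliferating cells of the liver also carry these genes, so their markers are given beside the members. Of all tested genes, 4.46% were called higher and 7.28% lower. Of 9 Kupffer cell and macrophage markers 0 were called higher and 6 lower, with a summed level of 29360 normalized reads in control against 19551 in iFIRKO. The sums were 395.7 and 116.5 for 5 neutrophil markers (2 of 2 tested lower, *S100a8* tested only through the control library, *Ly6g* at 3 read pairs or fewer in both libraries and *Mpo* in iFIRKO), 669.7 and 296.2 for 5 B cell markers (3 of 4 tested lower, of which *Cd79a* was tested only through the control library) and 196.3 and 109.7 for 5 T and NK cell markers (the 1 tested lower). No leukocyte marker was called higher. Of the 5 endothelial markers 2 were called lower (sums 7700 and 5490). None of 5 stellate (sums 8511 and 9270) or 4 cholangiocyte markers (sums 2249 and 1956) was called, and 1 of 8 hepatocyte markers, *Apoa1*, was called lower. The part of any of these cell types in the values of the members was not tested.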

How the data were processed

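Liver mRNA of 1 control and 1 iFIRKO sample was measured (TruSeq stranded libraries, NovaSeq). The values deposited by the authors are log2 normalized read counts, 1 per gene symbol, and any scaled count up to 1 is listed at 0. The submitters' processing notes list mm10; the aligner, counter and annotation are not given in the sources used here. All values were raised to the linear scale. The commonest low value (1.987 in control, 2.013 in iFIRKO) was taken as 1 read pair. Of values under 40, 49.0% and 51.9% were then within 0.02 of a whole read, so depths are estimates and no count test was run. The limits (a CPM of 1, a pseudocount of a CPM of 0.1) refer to the mean of both totals. Intervals are Clopper-Pearson on rounded read pairs. Positions, merged exon lengths and overlaps came from GENCODE M21 on GRCm38, and promoters from RefSeq on GRCm38.p6. Merged exons overstate the length of genes with unused exons.

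The members and lists were chosen with earlier results of these data known, and the red cell list was added last. Named genes were the members, *Insr*, *Mki67*, and per pathway list up to 3 by level and 3 by absolute fold change at a mean CPM of 2 or more. The result for 1 gene that this rule names is not reported here. A CPM of 1 as pseudocount, no minimum, a minimum CPM of 5, TMM or median-ratio scaling, and a fold of 2 were tried as alternatives. The scripts were tested on simulated data and ran in Python 3.11.15 with scipy 1.17.1, pandas 2.3.3, numpy 2.4.6 and matplotlib 3.10.9.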

Additional observations from a re-analysis of the deposited data

How the results depend on the processing

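Of the 30 values of the 10 members under another pseudocount or scaling, 0 left the counting interval and 0 changed sign, and *E2f2* was the only member called under each of the 6 alternatives. Its log2 fold change ranged from 0.97 to 1.08, that of *Foxm1* from 0.42 to 0.50 and that of *E2f8* from -0.56 to -0.51. A pseudocount added to both libraries cannot change a sign, and the scalings hardly moved these values. The alternatives re-use the same 2 libraries, so they do not check the values themselves. Counts over all genes moved from 597 higher and 976 lower to 371 and 576 with a pseudocount of a CPM of 1, 1960 and 2620 without a minimum, 288 and 440 with a minimum CPM of 5, and 209 and 267 with the stricter fold of 2. Of the cyclin and inhibitor list, 1 gene was higher with the larger pseudocount and with the minimum CPM of 5, and 0 were higher and 0 lower with a fold of 2. Of the G1/S targets, 1 was higher with the larger pseudocount and with the minimum CPM of 5, and with a fold of 2 none was higher (0) and 1 was lower. Of the MuvB and MYB list, 1 gene was lower without a minimum. The G2/M targets called higher went from 24 to 22 with the larger pseudocount, 20 with the minimum CPM of 5 and 16 with a fold of 2. A higher minimum tests fewer genes by construction; the cause of the other moves was not tested. No paired analysis was possible because there is 1 library per genotype. *E2f7* and *Mybl2*, at 20 to 30 read pairs, have the least certain values.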
